A study of Mus musculus with 6 samples.

Results

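Intraepithelial lymphocytes with the γδ T cell receptor and the CD8αα homodimer (TCRgd CD8aa) were compared with those that carry the αβ receptor and the same CD8αα homodimer (TCRab CD8aa). The comparison rests on 4 of the 6 arrays of the series, 2 per subset, chosen by the source descriptions of the samples. Both subsets were sorted from the small intestine of untreated C57BL/6 mice younger than 8 weeks, and RNA was taken from the cells as isolated. Each array stands for a pool of 20 mice, and all subsets of 1 experiment came from the same pool, so that experiment 1 and experiment 2 each give a paired difference. The remaining arrays hold the αβ subset with the CD8αβ heterodimer (TCRab CD8ab) from the same pools, and its values are given beside the others. The titles of the TCRgd CD8aa samples write TCRgb where the source descriptions write TCRgd.

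Both CD8αα subsets are unconventional T cells of the gut epithelium. The CD8αα homodimer binds a nonclassical class I molecule of the epithelium and acts more as a modulator than as the coreceptor that CD8αβ is. CD8αα lymphocytes are known for natural killer type receptors and a cytotoxic programme, and those with the αβ receptor arise from self-reactive thymic precursors. Since receptor type separates these subsets while CD8 form does not, the comparison asks which transcripts go with the γδ or the αβ receptor among CD8αα cells.

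The values are array signals on a log2 scale, in which a difference of 1 is a doubling. Signals under 15.3 (log2 3.94, the 20th percentile of all values) were set to that floor, so a difference from a value at the floor is a lower bound. Of the probe sets that are no controls, 7752 lay above signal 56.4 (log2 5.82, the 40th percentile) in at least 2 of the 4 arrays and were tested. The subsets were compared with limma on all 6 arrays with the experiment as a block, at a Benjamini-Hochberg adjusted p under 0.05. Without the block, limma called 0 probe sets, with 29 at an unadjusted p under 0.05 and a smallest adjusted p of 0.865. The median residual standard deviation was 0.367 with the block and 0.684 without it. Errors given as ± are limma's standard errors of the paired fit (n = 2 arrays per subset). P-values rest on how the differences between subsets vary from 1 experiment to the other, over all subsets. The block takes out what the arrays of a pool share, and the spread between mice was not measured. The 2 arrays per subset limit the precision of every value. A fit that leaves out an array of either subset has a single array there, which is assumed to vary as the other subsets do, so its p-value adds no support to a call.

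The TCRgd CD8aa array of experiment 2 stood apart from the other arrays. Its summed signal over 26 enterocyte markers was 38287, against 1780 in TCRgd CD8aa of experiment 1 and 1248 to 2870 in the TCRab CD8aa and TCRab CD8ab arrays. On that array 1 of the 26 genes lay at the floor, against 5 to 8 on the others. Goblet cell markers summed to 10839 there and to 958 to 1484 elsewhere, enteroendocrine markers to 15013 and 342 to 998, Paneth cell markers to 3126 and 355 to 501, and B and plasma cell markers to 60130 and 3433 to 14306. Markers of stroma and endothelium summed to 1042 to 1832 over all arrays and those of erythroid cells to 94 to 318, with the TCRgd CD8aa array of experiment 2 inside the range. Those of mast cells and granulocytes were highest on it (1072, against 201 to 617). Among the 14 enterocyte genes tested, the median difference between TCRgd CD8aa and TCRab CD8aa was −0.70 in experiment 1 and 4.60 in experiment 2. Vil1, the villin of the brush border, had log2 differences of −1.09 and 6.84, and Fabp1, a fatty acid carrier of enterocytes, had −1.02 and 5.23. Listed markers of other cells are therefore not described as genes of either lymphocyte subset, and a difference is followed only where both experiments show it. In RNA of sorted pools, fewer cells of a type and less RNA per cell cannot be told apart.

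**Figure D1:**
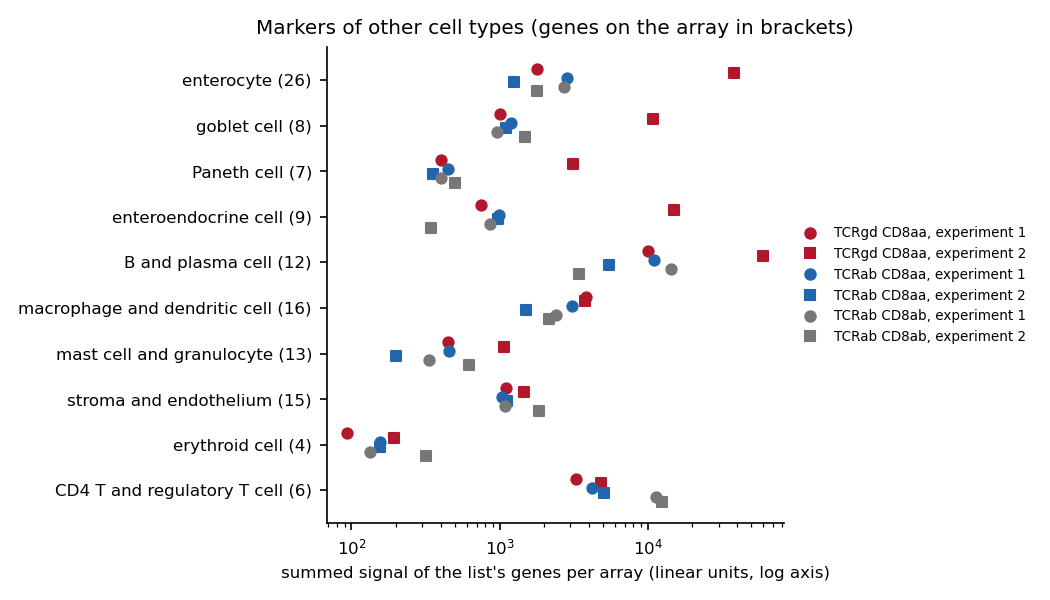
Summed linear signal (log axis) of markers of other cell types, with the number of genes on the array in brackets, for each of the 6 arrays; circles are experiment 1 and squares experiment 2. The red square, TCRgd CD8aa of experiment 2, lies far to the right of the others for enterocyte (38287), goblet, Paneth, enteroendocrine and B or plasma cell markers.

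The experiments also differed in the 3′ to 5′ ratios of control transcripts and in the mice. The ratio of 3′ to 5′ beta-actin control signal was 1.41 to 1.76 on the arrays of experiment 1 and 40.4 to 52.2 on those of experiment 2. That of Gapdh was 3.38 in TCRgd CD8aa and 5.2 in TCRab CD8aa in experiment 1, and 29.6 and 22.3 in experiment 2. The Y-linked Eif2s3y was at the floor or at 3.97 in experiment 1 and at 10.36 to 11.71 in experiment 2. Across probe sets, the arrays of 1 experiment correlated at 0.965 (experiment 1) and 0.928 (experiment 2) between TCRgd CD8aa and TCRab CD8aa, whereas the arrays of TCRgd CD8aa in both experiments correlated at 0.761 and those of TCRab CD8aa at 0.816. The cause of the high ratios was not tested, nor what it or the mice of a pool contribute to any difference below.

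The sorted cells carried the transcripts of CD8 T cells. Cd8a, the chain of CD8 that all subsets share, lay at log2 14.03 (experiment 1) and 12.88 (experiment 2) in TCRgd CD8aa and at 14.09 and 12.95 in TCRab CD8aa. Cd8b1, the beta chain, was at 4.81 and 9.58 in TCRgd CD8aa, 4.88 and 7.51 in TCRab CD8aa, and 14.11 and 14.75 in TCRab CD8ab. Its signal was low in both CD8αα subsets in experiment 1 and higher in both in experiment 2, most so on the array with the enterocyte signal. The CD3 signalling chains lay close together, with paired differences of 0.38 and 0.19 for Cd3e, 0.17 and −0.65 for Cd3d, and 0.20 and −0.22 for Cd3g. Cd247, the zeta chain, had 10.15 and 7.70 in TCRgd CD8aa against 8.51 and 7.07 in TCRab CD8aa, a difference of 1.13 ± 0.39 that did not pass (limma adjusted p = 0.99993). Of the 2 probe sets of Itgae, the integrin chain that anchors these cells to E-cadherin, the brighter differed by −0.04 and −0.12 and the other by 0.18 and −0.03.

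The larger differences of receptor segments lay in the direction of the labels but did not pass limma. Trgv4, a variable segment of the gamma chain, had 15.10 and 14.26 in TCRgd CD8aa, 13.02 and 12.61 in TCRab CD8aa, and 11.56 and 10.74 in TCRab CD8ab. The order was the same in both experiments and the subsets did not overlap, yet the signal was high on every array. The difference between the CD8αα subsets was 1.87 ± 0.29 (limma adjusted p = 0.16). A probe set shared by Trgv2 and Trgv4 differed by 0.69 and 1.20, and that of Trgv1, another gamma segment, by 0.42 and 0.20.

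Alpha and beta segments lay on the αβ side. Trav9d-3, an alpha chain segment, had 10.94 and 6.60 in TCRgd CD8aa against 12.85 and 10.22 in TCRab CD8aa by its probe set 97945_at, a difference of −2.76 ± 0.40 (limma adjusted p = 0.14). The other probe set of Trav9d-3, of a kind that can match several segments, differed by −1.55 and −1.69. Both probe sets of Trbv13-2, a beta chain segment, were on the same side, by −1.61 and −1.46 and by −1.20 and −1.61, whereas Trbv1 differed by −0.35 and −0.29. In the γδ subset Trbv1 was bright (14.59 and 13.30), whereas Trbv13-2 was dim, with 8.30 and 6.13 and with 7.49 and 5.59. Signal for Trbv1 and Trgv4 was thus present on all arrays of both receptor types. Rag1, the recombinase, had opposite signs in the experiments (1.47 and −2.10).

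**Figure D2:**
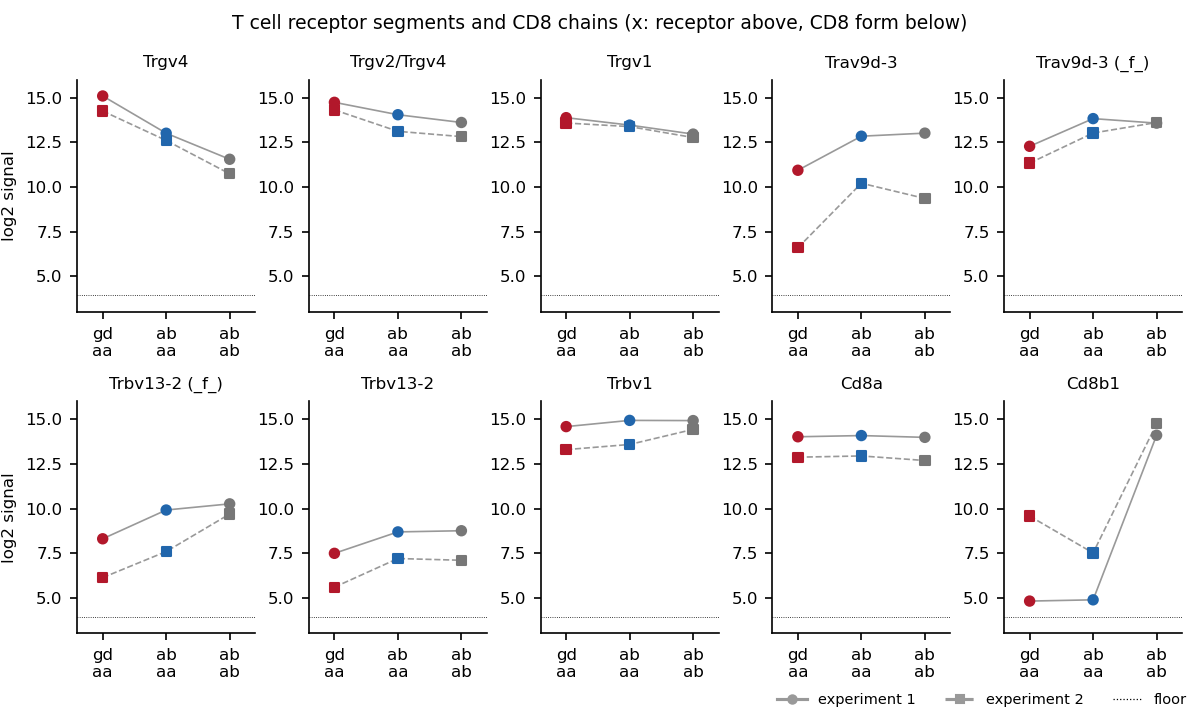
Log2 signal of receptor segments and CD8 chains on each array (x axis: receptor above, CD8 form below; circles with solid lines are experiment 1, squares with dashed lines experiment 2, dotted line the floor; _f_ marks a probe set that can match a family). Trgv4 falls from left to right in both experiments, Trav9d-3 and Trbv13-2 are lowest in the γδ subset, and Cd8b1 is high in TCRab CD8ab.

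limma called 2 probe sets between the CD8αα subsets. Of those tested, 1 rose in TCRgd CD8aa (0.0129%) and 1 fell (0.0129%). On the same probe sets, which share the arrays of this comparison, limma called 38 between TCRgd CD8aa and TCRab CD8ab (0.49%) and 60 between TCRab CD8aa and TCRab CD8ab (0.774%). These probe sets were chosen on the CD8αα arrays alone, so transcripts with signal only in TCRab CD8ab could not be counted. At an unadjusted p under 0.05 the CD8αα comparison had 160.

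The transcript that rose is measured by probe set 92328_at, which has no gene symbol in the annotation used here. Its log2 values were 14.03 and 13.20 in TCRgd CD8aa, 8.16 and 7.15 in TCRab CD8aa, and 7.71 and 6.39 in TCRab CD8ab. The γδ arrays did not overlap the others, and all 4 αβ arrays lay at least 5 log2 units below them. The paired differences were 5.86 and 6.04, and the fitted difference was 5.95 ± 0.31, or 62.0-fold (limma adjusted p = 0.000173). Fitted without the TCRgd CD8aa array that held the enterocyte signal, the difference was 5.78, with a single γδ array left. Over all alternatives the limma adjusted p ranged from 6.74e-19, in a fit with a single γδ array, to 0.865 without the block.

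The transcripts that fell belong to the Ly49 family, lectin-like receptors for class I molecules that are best known from natural killer cells. Probe set 95908_at, shared by Klra1, Klra16 and Klra22, had 5.14 and 6.43 in TCRgd CD8aa and 9.55 and 10.94 in TCRab CD8aa. In TCRab CD8ab it was at the floor and at 4.52, so that both TCRab CD8aa arrays lay above all the others. The paired differences of −4.42 and −4.50 gave a fitted −4.46 ± 0.50, or 22.0-fold (limma adjusted p = 0.0437). Its call is lost without either TCRab CD8aa array, with limma adjusted p of 0.0576 without that of experiment 1 and 0.715 without that of experiment 2. Without the TCRgd CD8aa array of experiment 2 the difference was −4.62, with a single γδ array left. Over all alternatives the limma adjusted p ranged from 1.27e-05, again in a fit with a single γδ array, to 1.

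Other Ly49 probe sets lay on the same side without passing limma. Klra7, which encodes the inhibitory Ly49G, had 7.30 and 7.53 in TCRgd CD8aa against 9.88 and 9.57 in TCRab CD8aa by the probe set 97761_f_at (−2.31 ± 0.48, limma adjusted p = 0.86). Its other probe set differed by −2.44 and −2.23. Klra6 had 8.01 and 7.84 against 10.02 and 9.45, and Klra5 had 10.54 and 8.43 against 11.63 and 9.92. In each of these the γδ array lay below its αβ CD8αα partner and above the TCRab CD8ab array of the same experiment.

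The family was not uniform. Klra3 differed by −0.15 and −0.78, the probe set shared by Klra8 and Klra9 by −0.95 and −0.79, and the Klra5, Klra6 and Klra7 differences ranged from −2.58 to −1.10. Several of these probe sets are of a kind that can match more than 1 family member, so the values cannot be divided among the genes with certainty. Lectin receptors outside Ly49 were mixed as well. Klrd1, the CD94 partner of the NKG2 receptors, was bright in both subsets (13.47 and 14.19 against 13.69 and 13.54) and differed by −0.21 and 0.65. Klrb1a, an NKR-P1 receptor, was equal in experiment 1 (11.07 in both) and differed by −1.42 in experiment 2. Klrc1, which encodes NKG2A, differed by −0.62 and 0.62, and Klrg1, an inhibitory receptor of effector cells, by 0.34 and 0.11. Klrk1, which encodes the activating NKG2D, was dim and differed by −1.57 and −1.06. Tyrobp, the DAP12 adaptor that carries signals of activating receptors, had 13.42 and 11.83 against 13.56 and 12.88, and 7.75 and 8.84 in TCRab CD8ab.

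**Figure D3:**
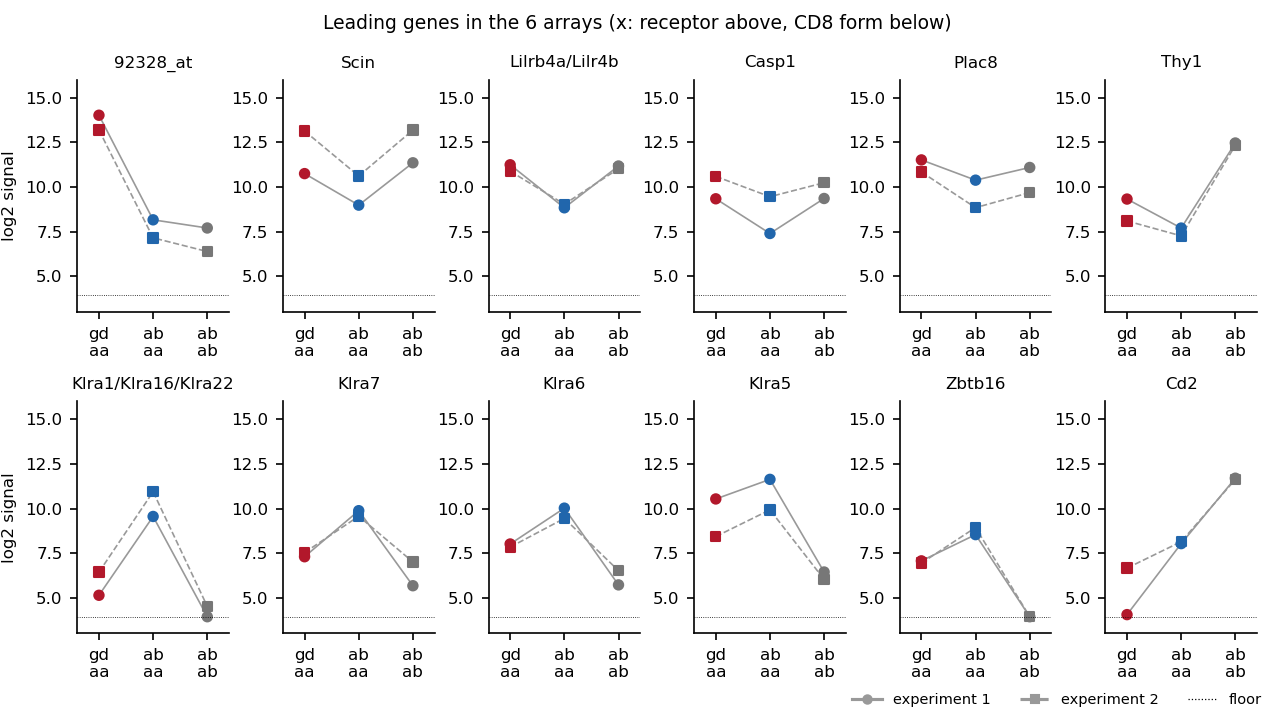
Log2 signal of 12 probe sets on each array (axes and symbols as in the plot of receptor segments). The signal of 92328_at is highest in the γδ subset, that of the Klra1, Klra16 and Klra22 probe set in TCRab CD8aa, and Scin, Lilrb4a/Lilr4b and Casp1 dip in TCRab CD8aa.

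Among the next probe sets by p-value, those of Scin and of Lilrb4a and Lilr4b had lower values in TCRab CD8aa than in both other subsets. Scin, which encodes scinderin, a calcium-dependent protein that severs actin filaments, had 10.75 and 13.14 in TCRgd CD8aa, 8.99 and 10.62 in TCRab CD8aa, and 11.36 and 13.19 in TCRab CD8ab. In each experiment the TCRab CD8aa array was the lowest, and the difference from TCRgd CD8aa was 2.14 ± 0.30 (limma adjusted p = 0.13). The paired Scin differences were 1.77 in experiment 1 and 2.52 in experiment 2. What the enterocyte signal contributed to them was not tested.

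Lilrb4a and Lilr4b, neighbouring genes of the gp49 family of immunoglobulin-like receptors, showed the same shape. The probe set they share, 92217_s_at, had 11.25 and 10.89 in TCRgd CD8aa, 8.84 and 9.04 in TCRab CD8aa, and 11.18 and 11.03 in TCRab CD8ab. The difference of 2.13 ± 0.30 did not pass (limma adjusted p = 0.13). A probe set for Lilr4b alone differed by 1.54 and 1.01. That of Pirb and related paired receptors was dim and differed by −0.17 and −0.99.

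Inflammatory caspases had higher values in TCRgd CD8aa in both experiments, without passing limma. Casp1, the protease that matures interleukin-1β, had 9.34 and 10.60 in TCRgd CD8aa against 7.40 and 9.46 in TCRab CD8aa, and 9.36 and 10.24 in TCRab CD8ab (1.54 ± 0.37, limma adjusted p = 0.99993). Casp4, which encodes the sensor of cytosolic lipopolysaccharide, had 7.23 and 8.22 against 5.63 and 7.17. Plac8 had 11.52 and 10.84 against 10.39 and 8.85, with 11.10 and 9.69 in TCRab CD8ab (1.57 ± 0.32, limma adjusted p = 0.86). Thy1, a surface glycoprotein of conventional T cells, had 9.33 and 8.10 against 7.70 and 7.26, far under its 12.47 and 12.34 in TCRab CD8ab.

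Markers of macrophages and dendritic cells were higher in TCRgd CD8aa as well. Of 11 such genes tested, 9 (81.8%) were higher in TCRgd CD8aa in both experiments and 0 lower, against 23% and 25.9% of all genes. Their median differences were 0.38 and 1.06. The summed signal of 16 of them on the array was 3843 and 3751 in TCRgd CD8aa, 3056 and 1501 in TCRab CD8aa, and 2396 and 2139 in TCRab CD8ab. H2-Aa, a class II chain, had 7.50 and 8.70 in TCRgd CD8aa against 4.79 and the floor in TCRab CD8aa. In TCRab CD8ab it had 6.90 and the floor. It was the 1 listed gene at least 1 higher in both experiments. H2-Ab1 differed by 0.21 and 4.20 and Cd74 by 0.49 and 2.14, whereas the class II gene H2-DMb2 differed by −1.64 and −0.995. Markers of mast cells and granulocytes were likewise higher in both experiments for 4 of 5 and lower for 0, with medians of 0.32 and 1.17. The TCRgd CD8aa array of experiment 2 is also the one with the enterocyte and the B and plasma cell signal. What macrophages, dendritic cells or other cells contributed to the values of Scin, Lilrb4a, Casp1, Casp4, Plac8 and the class II genes was not tested.

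Cd2 and Zbtb16 were among the transcripts with lower values in TCRgd CD8aa in both experiments. Cd2, an adhesion receptor that binds CD48 in the mouse, had 4.05 and 6.66 in TCRgd CD8aa, 8.03 and 8.14 in TCRab CD8aa, and 11.70 and 11.63 in TCRab CD8ab. The difference between the CD8αα subsets was −3.98 in experiment 1 and −1.48 in experiment 2 (−2.73 ± 0.62, limma adjusted p = 0.99993). Cd2 passed under 1 alternative, the fit without the TCRgd CD8aa array of experiment 2, which leaves the experiment with the larger difference (−4.02, limma adjusted p = 4.78e-07). Under the others the limma adjusted p was 0.476 to 1. Zbtb16, which encodes PLZF, the transcription factor of innate-like T cells, had 7.07 and 6.94 in TCRgd CD8aa and 8.54 and 8.93 in TCRab CD8aa (−1.73 ± 0.51). Both TCRab CD8ab arrays were at the floor, and the 4 CD8αα arrays were above it.

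The chemokine receptors Xcr1 and Ccr6 had lower values in TCRgd CD8aa in both experiments, while Ccr9, the gut-homing receptor, differed by 0.80 and 0.19. Xcr1, the receptor for XCL1, had 4.51 and 5.12 in TCRgd CD8aa against 6.76 and 7.12 in TCRab CD8aa, and Ccr6, the receptor for CCL20, had 4.92 and 4.81 against 6.20 and 6.68. Both are dim signals, and TCRab CD8ab had 6.76 and 6.38 for Xcr1 and 7.65 and 5.05 for Ccr6. Acly, which makes acetyl-CoA from citrate, was bright throughout, with 11.68 and 11.13 against 12.99 and 12.93. Clic4, a chloride channel protein, differed by −0.80 and −1.22 in 1 probe set and by −0.28 and −0.05 and by 0.33 and 0.04 in the others.

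Counted over all genes, agreement between the experiments was low. A difference of at least 1 in the same direction in both experiments was found for 56 probe sets higher in TCRgd CD8aa (0.722%) and 30 lower (0.387%). Another 74 differed by at least 1 in opposite directions, of which 59 were lower in experiment 1 and higher in experiment 2. In experiment 1 alone 220 probe sets were at least 1 higher and 245 lower, and in experiment 2 alone 603 and 400. Across the 7752 probe sets, which are not independent, the difference in experiment 1 and that in experiment 2 had a Pearson correlation of 0.00699, and 49.2% had the same sign. The split between higher and lower depended on the scaling of the arrays. It was 41 higher and 47 lower after quantile normalization, and 39 and 48 after scaling to a common median. These scalings moved the median difference of all probe sets in experiment 2 from −0.036 to −0.104 and −0.332.

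**Figure D4:**
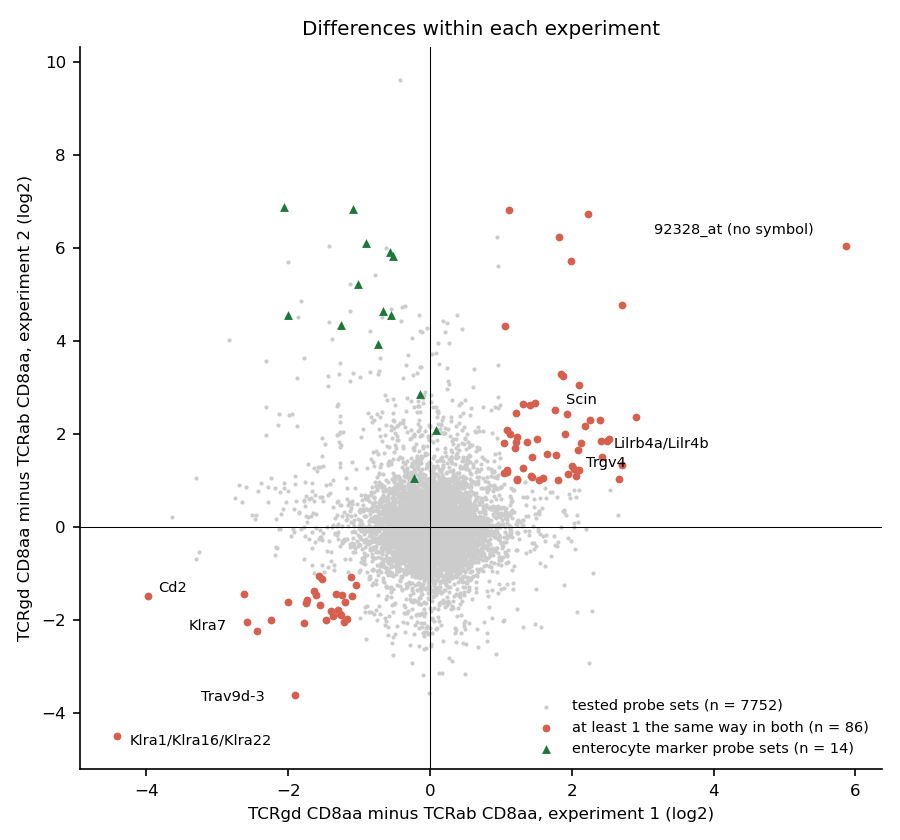
Log2 difference between TCRgd CD8aa and TCRab CD8aa in experiment 1 (x axis) and experiment 2 (y axis) for the 7752 probe sets tested. The 86 probe sets that differ by at least 1 the same way in both are in red, and the 14 enterocyte marker genes (green triangles) lie above 0 on the y axis and near or left of 0 on the x axis.

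Most agreeing probe sets were dim. A mean log2 signal above 8 over the 4 arrays was found for 7 of the 56 higher and 8 of the 30 lower, against 55% of all probe sets tested. At least 1 array lay at the floor for 20 of the 56 and 2 of the 30, against 4.31% of all tested. Just inside the limit of 1 was Pik3r2 (1.80 and 1.00), and just outside it were Ikzf1 (0.99 and 2.63) and Sox4 (−0.99 and −1.96).

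Receptor segments and listed markers of other cells, such as Trgv4, Trav9d-3, Trbv13-2 and H2-Aa, are left out of the following ranking by the lesser of the paired differences. The leading genes on the higher side were Sin3b, Penk, Tpp2, Adam8, Epb41l4a, Gast, Mxd1, Stk16, Cd151, Slc7a9, Eya2, Scin, Ebf2, Zfp651 and Nt5dc2. Of these, Scin and Slc7a9 passed log2 9 on a TCRgd CD8aa array. Slc7a9, an amino acid transporter of the intestine and kidney, had 6.17 and 10.18 in TCRgd CD8aa and 4.35 and the floor in TCRab CD8aa. Its value of 10.18 lies on the array with the enterocyte signal, and what that signal contributed to Slc7a9 was not tested. Sin3b, a corepressor scaffold, had 7.37 and 6.30 in TCRgd CD8aa and 4.47 and the floor in TCRab CD8aa. A brighter probe set of Sin3b differed by 0.33 and 0.19. Likewise, other probe sets did not repeat the difference for Tpp2, a peptidase (−0.39 and −0.50), Stk16, a kinase (0.07 and 0.16), Cd151, a tetraspanin (−0.03 and 0.54, and 0.05 and −0.73), or Zfp651 (0.33 and 0.39). Those of Epb41l4a (−0.48 and −0.03) and Penk (0.12 and 1.25) did not either. The other probe set of Gast differed by 0.16 in experiment 1 and lay at the floor on both arrays in experiment 2, where it could not be compared.

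Genes of this group measured by 1 tested probe set included regulators of known function. Adam8, a membrane metalloprotease, had 6.81 and 7.51 against 4.71 and 4.47, with 6.88 and 4.80 in TCRab CD8ab. Mxd1, a repressor that competes with Myc for Max, had 8.76 and 7.18 against 6.89 and the floor. Eya2, a transcriptional coactivator, had 6.06 and 7.71 against the floor and 5.90, with 8.01 and 8.57 in TCRab CD8ab. The γδ array was the higher of the pair each time, but none of these passed limma, and for Mxd1 and Eya2 1 of the differences is a lower bound.

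On the lower side, with the same genes left out, the leading genes were Klra7, Xcr1, Rpl19, Lysmd2, Klra6, Otog, Cd2, Zbtb16, Prkar1b, Tbxa2r, Cryge, Ptpn23, Lbp, Acly and Ccr6. Prkar1b, a regulatory subunit of protein kinase A, had 5.42 and 5.75 in TCRgd CD8aa against 8.04 and 7.19 in TCRab CD8aa. Tbxa2r, the thromboxane receptor, had 5.34 and 5.57 against 6.74 and 7.38. Rpl19, a ribosomal protein, appears through a dim probe set (4.05 and 5.49 against 5.83 and 7.54), while its bright probe set differed by 0.27 and −0.15. Cryge, a lens crystallin, likewise had another probe set at −0.06 and 0.39. Lysmd2, Otog, Ptpn23 and Lbp differed by −1.91 to −1.33, with TCRgd CD8aa below log2 7 on each array.

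Set beside TCRab CD8ab, the agreeing transcripts fell on both sides. Of the 56 higher in TCRgd CD8aa, TCRab CD8ab lay nearer to TCRgd CD8aa in both experiments for 26 and nearer to TCRab CD8aa for 10. Of the 30 lower, the counts were 9 and 10. Over all probe sets tested the shares were 28.5% and 21.3%. These distances use the same arrays as the differences and are given as a description.

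Gene lists of lymphocyte function held no called member, and neither did the 5776 genes with 1 symbol as a whole, since both called probe sets have no symbol or several. They were chosen with earlier results of these arrays known and are described by counts. Over all 5776 genes, each by its brightest probe set, 1326 (23%) were higher in TCRgd CD8aa in both experiments, by any amount, and 1496 (25.9%) were lower, with medians of 0.01 and −0.05. Activating natural killer type receptors and adaptors were lower in both for 6 of 8 and higher for 1, with medians of −0.16 and −0.46. Inhibitory natural killer type and leukocyte receptors were lower for 4 of 8 and higher for 1, with medians of −0.42 and −0.34, and Klra5, Klra6 and Klra7 were the 3 members at least 1 lower in both. Proximal receptor signalling genes were lower for 10 of 27 and higher for 3, with medians of −0.02 and −0.41. In T cell lineage transcription factors 11 of 26 were lower and 7 higher, and Zbtb16 was the member past 1 in both experiments.

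In the heat shock and activation lists, more genes were higher than lower in TCRgd CD8aa. Heat shock genes were higher in both experiments for 8 of 13 and lower for 0, with medians of 0.15 and 0.49. Hsp90aa1, a cytosolic chaperone, had 13.50 and 14.44 in TCRgd CD8aa against 12.72 and 13.46 in TCRab CD8aa, and Hspa1a, the inducible chaperone Hsp70, differed by −0.19 and 1.47. Immediate early and activation genes were higher for 7 of 24 (29.2%, near the 23% of all genes) and lower for 2 (8.33%, against 25.9%). The medians of this list were 0.04 and 0.27. Birc3, an inhibitor of apoptosis, differed by 0.66 and 1.08, and the list of Bcl2 family and apoptosis genes had 7 of 22 higher and 5 lower.

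Lists of cytotoxic and cytokine genes had medians within 0.13 of 0. Cytotoxic granule and death ligand genes were higher for 5 of 12 and lower for 2, with medians of 0.11 and 0.06, and Gzmb, granzyme B, differed by 0.14 and 1.04. Cytokine receptors were higher for 9 of 22 and lower for 3, and cytokines and growth factors for 4 and 3 of 11. Among them Il7r, the interleukin-7 receptor, had 6.81 and 9.99 against 5.85 and 6.51, with 11.48 and 10.32 in TCRab CD8ab. Of cytokines, Ifng, interferon γ, had 7.59 and 11.16 against 7.22 and 9.17, a wide gap in experiment 2 alone. Chemokines and their receptors were higher for 7 of 14 (50%, against 23% of all genes) and lower for 4 (28.6%, against 25.9%). Their medians were 0.002 and 0.26. Integrins and adhesion receptors were higher for 3 and lower for 6 of 19, with medians of −0.04 and 0.15. Costimulatory and coinhibitory receptors were higher for 3 and lower for 4 of 12, with medians of 0.14 and −0.12.

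Metabolic and cell cycle lists had medians of opposite sign or near 0. Oxidative phosphorylation genes had 0.06 and 0.04 over 37 genes, glycolysis genes −0.02 and 0.21 over 15, interferon response genes 0.17 and −0.05 over 23, and cell cycle genes 0.19 and −0.34 over 47. Of the 47 cell cycle genes 7 were higher in both experiments and 6 lower. In none of these lists did a member differ by at least 1 the same way in both experiments.

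**Figure D5:**
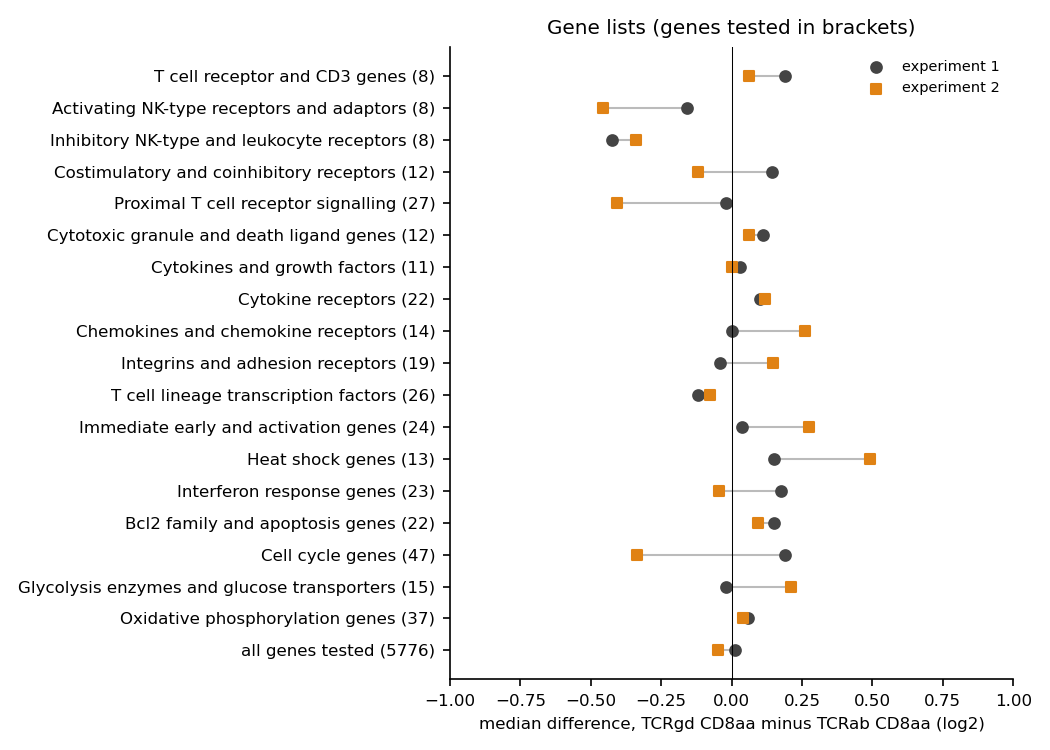
Median log2 difference between TCRgd CD8aa and TCRab CD8aa for each gene list, 1 probe set per gene, in experiment 1 (grey circles) and experiment 2 (orange squares), with the number of genes tested in brackets. Both natural killer receptor lists lie left of 0 and heat shock genes right of 0 in both experiments, while cell cycle genes switch sides (0.19 and −0.34).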

How the data were processed

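The authors deposited MAS5 signal intensity per probe set, on a linear scale, per the submitters' processing notes and the values (the trimmed mean was 500.4 on all 6 arrays). The MAS5 version and genome build are not given in the sources used here. Detection calls were not used. Of 12488 probe sets, 66 controls were left out. Of the 7752 tested, 6946 had 1 gene symbol (5776 genes), 268 several and 538 none. No 2 arrays shared more than 45 equal values.

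The log2 signals were fitted with limma 3.58.1 in R 4.3.3 (lmFit, eBayes with intensity trend). A check of the fit on simulated data gave every probe set the same spread and placed changes in bright probe sets only. It therefore does not bear on dim ones. All subsets of an experiment came from 1 pool per the series' design. Deviations from subset means correlated at 0.751, 0.629 and 0.651 between subsets. The experiment was therefore a block, and a fit without it an alternative.

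Named genes were the 15 per direction with the largest lesser difference (receptor segments, sort genes and markers of other cells left out), the 5 with the smallest p, called genes, list members with the smallest p or at least 1 in both experiments, and receptor and sort genes. Other Klr and Lilr probe sets, Tyrobp and Itgae were added after their values were seen. Members and lists were chosen with earlier results of these data known. Alternatives covered scaling, floor, filter, block, trend, threshold, the arrays fitted and each array left out.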

Additional observations from a re-analysis of the deposited data

How the results depend on the processing

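The call of 92328_at was lost without the block and without a filter. Its difference was 5.63 to 6.12 over all 18 alternatives, whether or not it was called. The call of the Klra1, Klra16 and Klra22 probe set was lost there too, and also after quantile normalization, without intensity trend and without either TCRab CD8aa array. Its difference was −4.68 to −3.56 over all alternatives. A looser threshold, also among the alternatives, cannot lose a call. Fits without an array of TCRgd CD8aa or TCRab CD8aa take the spread from the remaining arrays. Without the replicate block limma called 0 higher and 0 lower (29 at an unadjusted p under 0.05), and without a filter 0 and 0. Quantile normalization called 1 higher and 0 lower, as did the fit without intensity trend. The filter at the 60th percentile, which tests fewer probe sets, called 3 and 2, adding Scin, Lilrb4a/Lilr4b and Trav9d-3. Leaving out 1 array in turn gave 1 to 87 higher and 0 to 16 lower. The 87 and 16 came without TCRgd CD8aa of experiment 1, where 28 of the 103 were on the lists of markers of other cells. Without TCRgd CD8aa of experiment 2 there were 2 and 3, and 0 lower without TCRab CD8aa of experiment 2.

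Probe sets at least 1 higher and lower in both experiments numbered 41 and 47 after quantile normalization, 39 and 48 after median scaling, 14 and 13 with log2(signal + 50), 163 and 61 without a filter, and 9 and 11 with the filter at the 60th percentile. At 1.5-fold they were 181 and 127, and at 4-fold 8 and 3. A single experiment gave 220 to 603 higher and 245 to 400 lower. Without probe sets at the floor, a choice made after seeing the data, 36 and 28 remained.

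Differences near 0 changed sign. Klrc1 was −0.14 after quantile normalization and −0.16 after median scaling, Klrg1 −0.01 after quantile normalization, and Itgae (161730_f_at) −0.088 after median scaling. With 1 array left out, the ranges were −0.30 to 0.45 for Itgae, −0.28 to 0.73 for Klrg1, −1.32 to 0.16 for the Pirb probe set, −0.63 to 0.16 for Cd3d, −0.22 to 0.21 for Cd3g, −1.47 to 0.053 for Klrb1a, −0.58 to 0.59 for Klrc1, −0.10 to 0.55 for Klrd1, −1.66 to 1.03 for Rag1, −0.57 to 2.56 for Cd8b1 and −1.49 to 0.30 for Tyrobp. The cause of these shifts was not tested.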
